A study of Rattus norvegicus with 12 samples.

Results

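The 10 genes for secreted Wnt antagonists, Frzb, Sfrp1, Sfrp2, Sfrp4, Sfrp5, Dkk1, Dkk2, Dkk3, Wif1 and Sost, were followed in cultured fetal rat metatarsal bones given dexamethasone, lithium chloride (LiCl), both or neither. They were taken by symbol from the 30045 gene symbols of the count files, and all 10 were found there. The study asked whether LiCl counters the growth retardation that dexamethasone, a synthetic glucocorticoid, causes in growing bone. RNA sequencing was run on 12 libraries, 3 for each of 4 conditions. Bones came from Sprague Dawley fetuses at embryonic day 19, and about 20 metatarsals were pooled for a library.

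Culture lasted 72 h. The control group received the ethanol vehicle alone, the dexamethasone group 1 µM dexamethasone, the LiCl group ethanol with 10 mM LiCl, and the dexamethasone + LiCl group 1 µM dexamethasone with 10 mM LiCl. All groups shared the same medium with bovine serum albumin, β-glycerophosphate and ascorbic acid. The libraries hold whole crushed bones, so cell types are mixed, and the study describes each pool as coming from 1 rat with 3 rats in all. The labels number the replicates 1 to 3 without tying the numbers to rats.

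Wnt proteins bind Frizzled receptors together with the co-receptors Lrp5 or Lrp6, and the canonical branch then keeps β-catenin from being degraded by a complex that holds glycogen synthase kinase 3, the kinase that lithium inhibits. Secreted antagonists act outside the cell, upstream of that kinase. The secreted Frizzled-related proteins (Frzb and the Sfrp genes) and Wif1 bind Wnt proteins, whereas Dkk1, Dkk2 and sclerostin, the product of Sost, bind the co-receptors. In bone, Frzb is made by chondrocytes and sclerostin by osteocytes.

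Total counts ranged from 9055581 to 21953446 per library, and the 3 dexamethasone libraries, from 9263078 to 11685463, were shallower than the LiCl libraries, from 13866588 to 20644093. The tissue label was checked against cartilage markers: Col2a1, the main collagen of cartilage, lay between 24428 and 53393 CPM (counts relative to the library total) and Acan, its main proteoglycan, between 4160 and 7844 CPM. Levels are given as CPM on totals scaled by the trimmed mean of M values, and since they are not per length they are compared between conditions of a gene and not between genes. The 5 glucocorticoid receptor target genes that were listed (Fkbp5, Tsc22d3, Per1, Klf9 and Zbtb16) were all higher with dexamethasone than in control, and Fkbp5 went from 32.6 ± 1.3 to 236.9 ± 25.0 CPM (mean ± SD, n = 3).

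Promoter sequence was available in RefSeq (GRCr8) for 6 of the 10 genes: Frzb, Sfrp2, Sfrp5, Dkk1, Wif1 and Sost. The 3 shown belong to the genes that fell more than 2-fold with LiCl, the largest changes with LiCl among the antagonists tested. Each is the stretch upstream of the annotated gene start, 5′ to 3′ in the direction of the gene, and capitals mark CAAAG, the core of the sequence that TCF/LEF factors bind, on either strand.

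Frzb (chr3:85772169-85772346, minus strand): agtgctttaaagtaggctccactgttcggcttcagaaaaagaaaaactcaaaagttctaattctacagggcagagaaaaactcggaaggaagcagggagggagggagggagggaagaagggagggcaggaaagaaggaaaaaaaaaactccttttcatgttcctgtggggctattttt

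Sfrp2 (chr2:171387286-171387535, plus strand): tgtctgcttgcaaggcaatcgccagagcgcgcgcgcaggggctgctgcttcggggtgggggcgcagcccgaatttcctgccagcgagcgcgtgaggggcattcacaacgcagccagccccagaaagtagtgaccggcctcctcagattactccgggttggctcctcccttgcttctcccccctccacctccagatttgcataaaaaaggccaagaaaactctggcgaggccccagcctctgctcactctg

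Sfrp5 (chr1:250960513-250960762, minus strand): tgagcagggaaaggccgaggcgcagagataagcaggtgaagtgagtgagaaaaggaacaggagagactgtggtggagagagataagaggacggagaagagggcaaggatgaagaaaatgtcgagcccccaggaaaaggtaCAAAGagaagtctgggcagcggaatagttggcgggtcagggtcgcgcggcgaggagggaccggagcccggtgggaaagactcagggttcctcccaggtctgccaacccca

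The motif CAAAG was searched on both strands in windows of 300 bases, together with AGAACA (part of the site that the glucocorticoid receptor binds) and TATAAA. The search also covered 4 longer forms that overlap CAAAG, namely AACAAAG or ATCAAAG, as well as TACAAAG or else TTCAAAG. Frzb held 1 CAAAG, 50 bases before the transcript start of the table and outside the stretch printed. Sfrp5 held 1, 110 bases before the start, as part of TACAAAG. Sfrp2, Wif1 and Sost held none, and Dkk1 held 4. CAAAG occurred in 53.8% of the 33469 promoters of that length, the longer forms in 17.1%, AGAACA in 20.7% and TATAAA in 14.2%. AGAACA was in none of the 6 windows and TATAAA in that of Dkk1 alone. The windows of Sfrp2 and Wif1 were rich in CG dinucleotides, 21 and 32, against a median of 7 over all promoters.

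Of the 10 genes, 7 reached the level needed for testing, 60 counts in at least 2 libraries, and did so in all 12 libraries. These were Frzb, Sfrp1, Sfrp2, Sfrp5, Dkk2, Dkk3 and Wif1. Sfrp4 and Sost were detected at low counts, and Dkk1 was at 0 in every library. Differences were tested with edgeR's quasi-likelihood test on all 12 libraries, with Benjamini-Hochberg adjustment over the 12602 genes tested, and a gene passed at an adjusted p under 0.05.

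More antagonist genes passed the test with LiCl than with dexamethasone. With LiCl against control 6 of the 7 tested genes passed, 4 lower and 2 higher, where 10.6% of all tested genes passed (5.9% lower and 4.71% higher). Frzb, Sfrp2 and Sfrp5 also differed by over 2-fold, a size that 1.58% of all tested genes reached. The median change of the 7 genes was -0.79 on the log2 scale, and the median of all genes was 9e-04. With dexamethasone against control 4 of 7 passed, 3 lower and 1 higher, where 10.9% of all tested genes passed (5.49% lower and 5.45% higher), and none of them exceeded 2-fold, as 2.84% of all tested genes did. The median there was -0.30 over the 7 genes and 0.0021 over all genes. These 2 comparisons share the 3 control libraries. The dexamethasone libraries were shallower than the LiCl libraries, and the part of depth in the 2 counts was not tested. With a library left out, the dexamethasone count ranged from 2 to 4 and the LiCl count stayed at 6.

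**Figure D1:**
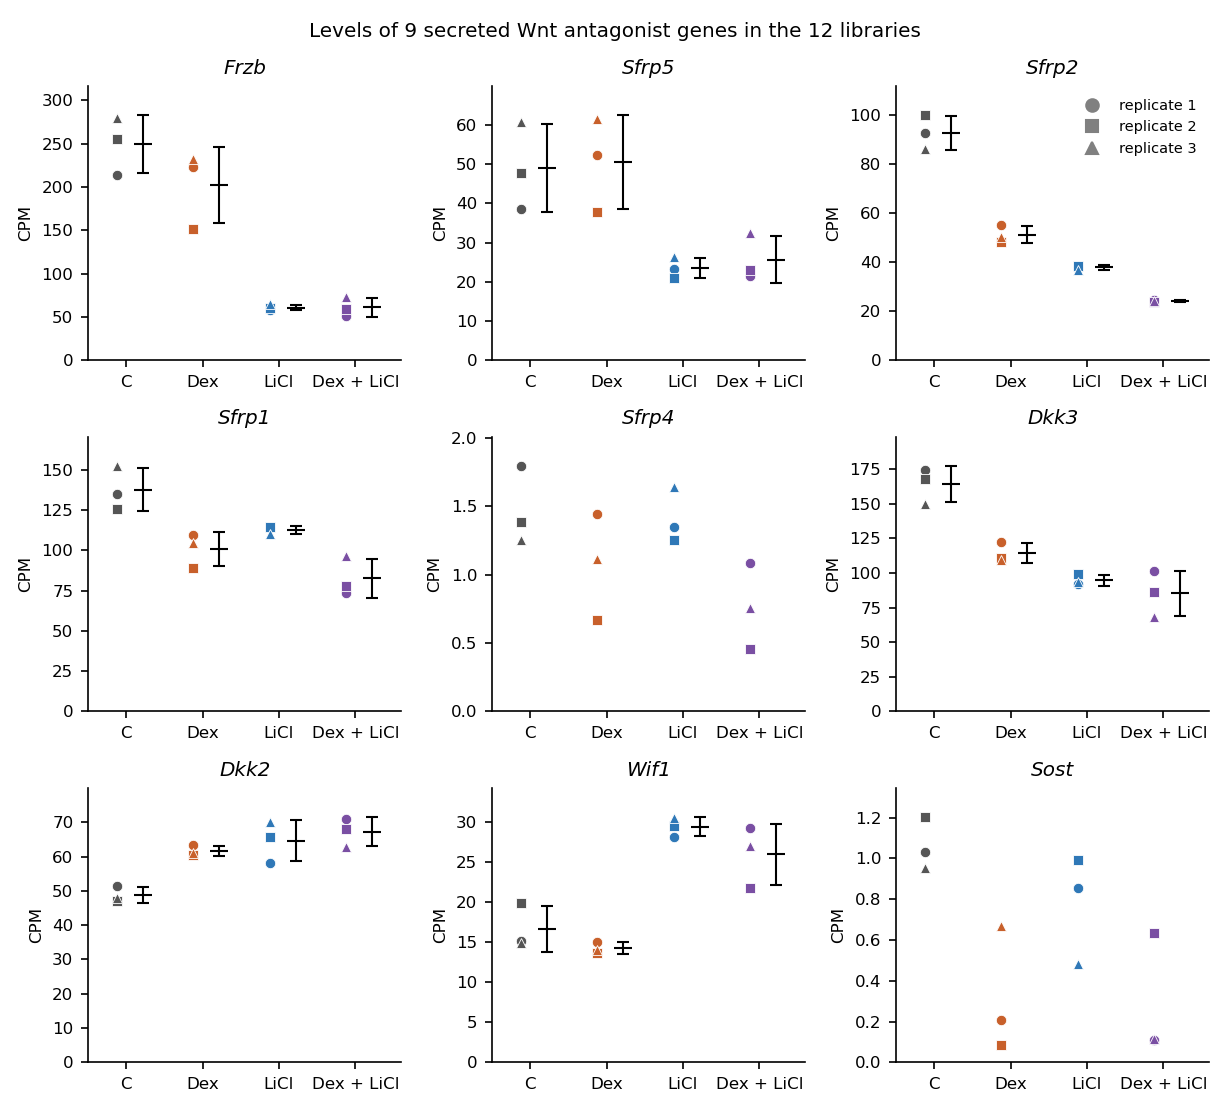
Levels of 9 antagonist genes in CPM (vertical axes from 0, different in each panel) in control (C), dexamethasone (Dex), LiCl and Dex + LiCl libraries. Symbols are single libraries and black bars are mean ± SD (n = 3), not drawn for the sparsely counted Sfrp4 and Sost; Frzb and Sfrp5 separate into libraries with and without LiCl, while Sfrp2 falls in every step from C to Dex + LiCl.

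Frzb, also called sFRP3, an antagonist of cartilage, showed the largest response. Its level was 214.3, 255.1 and 279.7 CPM in the control libraries and 58.4, 60.1 and 64.6 CPM with LiCl. With dexamethasone it was 223.3, 151.6 and 232.1 CPM, and with both drugs 51.8, 58.8 and 73.1 CPM. All 6 libraries with LiCl lay below all 6 without it, and within each of these sets the conditions overlapped. Frzb fell by 75.5% with LiCl against control (log2 fold change -2.03, SE 0.16, edgeR adjusted p = 1.47e-06) and fell by 69.6% when LiCl was added to dexamethasone (log2 fold change -1.72, SE 0.16, edgeR adjusted p = 1.12e-05). Dexamethasone against control did not pass (log2 fold change -0.30, 95% interval -0.62 to 0.01, edgeR adjusted p = 0.229). Between both drugs and LiCl alone the log2 difference was 0.01, with an interval from -0.32 to 0.34. In whole bones fewer cells that express a gene and less RNA per cell cannot be told apart, here and for the genes that follow.

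Sfrp5, another Frizzled-related protein, had the same division by LiCl at a smaller size. Control libraries held 38.5, 47.8 and 60.8 CPM and dexamethasone libraries 52.2, 37.8 and 61.4 CPM. LiCl libraries held 23.2, 21.0 and 26.3 CPM and libraries with both drugs 21.4, 23.1 and 32.5 CPM. The sets with and without LiCl did not overlap, although the spread was wide within control, within dexamethasone and with both drugs, with coefficients of variation of 22.8%, 23.6% and 23.3%, against 11.2% with LiCl. The log2 fold change was -1.06 (SE 0.19, edgeR adjusted p = 0.00233) with LiCl against control and -0.95 (SE 0.20, edgeR adjusted p = 0.00794) with LiCl on top of dexamethasone. Dexamethasone against control gave 0.04 with an interval from -0.37 to 0.44, and the order of these conditions is not resolved.

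Sfrp2 was lowered by each drug alone and by both together. Its level was 92.7, 99.99 and 86.2 CPM in control, and 55.2, 48.5 and 50.3 CPM with dexamethasone. It was 38.3, 38.5 and 37.0 CPM with LiCl and 24.7, 24.0 and 24.1 CPM with both. The 4 conditions did not overlap at any step, in the order control, dexamethasone, LiCl, both, and each neighbour in that order differed in the edgeR test (adjusted p = 2.27e-06, 0.0013 and 0.000112). Sfrp2 fell by 44.7% with dexamethasone (log2 fold change -0.86, SE 0.08), fell by 59.2% with LiCl (log2 fold change -1.29, SE 0.08) and fell by 73.9% with both (log2 fold change -1.94, SE 0.08). The replicate spread was narrow in the LiCl groups, with an SD of 0.832 CPM for LiCl and 0.389 CPM for both drugs.

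Sfrp1 passed the test with dexamethasone, at a size under 2-fold, and dexamethasone and LiCl did not differ from each other in the test (log2 difference -0.16, interval -0.39 to 0.07, edgeR adjusted p = 0.363). Control libraries held 135.0, 126.1 and 152.3 CPM, dexamethasone libraries 109.4, 89.2 and 104.9 CPM, LiCl libraries 114.0, 114.6 and 110.1 CPM, and libraries with both drugs 73.3, 78.1 and 96.6 CPM. All treated libraries lay below the 3 control libraries, and the libraries with both drugs overlapped those with dexamethasone. Dexamethasone lowered Sfrp1 against control (log2 fold change -0.45, SE 0.11, edgeR adjusted p = 0.0117) and also on top of LiCl (log2 fold change -0.44, SE 0.11, edgeR adjusted p = 0.0179). LiCl against control gave -0.29 with an interval from -0.51 to -0.06, and it did not pass after adjustment (edgeR adjusted p = 0.0964), but passed with the replicate number as a block (adjusted p = 0.0467). Both dexamethasone calls on Sfrp1 depended on which libraries were in the fit. The first was lost without control replicate 3 (adjusted p = 0.0534) or dexamethasone replicate 2 (0.0558). The second was lost without LiCl replicate 1 (0.0598) or 2 (0.0629), or without dexamethasone + LiCl replicate 1 (0.103) or 2 (0.0911).

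Sfrp4 stayed near the limit of counting. It had 40, 15 and 25 counts in control, 14, 8 and 10 with dexamethasone, 19, 24 and 34 with LiCl and 10, 5 and 13 with both. On the CPM scale this was 1.48 ± 0.28, 1.08 ± 0.39, 1.41 ± 0.20 and 0.766 ± 0.317 CPM (mean ± SD, n = 3). The libraries with both drugs lay below those of control and of LiCl without overlap. With a looser filter that lets Sfrp4 into the edgeR fit, both drugs against control gave a log2 fold change of -0.98 with an adjusted p of 0.0681, and no comparison of Sfrp4 passed.

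The dickkopf genes did not move as a family. Dkk3, a divergent member whose action on Wnt signalling is less settled, fell. Its level was 174.7, 168.1 and 150.2 CPM in control, 122.6, 111.0 and 109.1 CPM with dexamethasone, 91.7, 99.2 and 93.5 CPM with LiCl, and 101.4, 86.0 and 68.5 CPM with both. Every treated library lay below the lowest control library, and the libraries with both drugs spread across those with LiCl. Dkk3 fell by 30.5% with dexamethasone (log2 fold change -0.52, SE 0.11, edgeR adjusted p = 0.00596) and fell by 42.3% with LiCl (log2 fold change -0.79, SE 0.11, edgeR adjusted p = 0.000376). LiCl on top of dexamethasone gave -0.43 (SE 0.11, edgeR adjusted p = 0.0318). That last call on Dkk3 was lost when the fit held only the groups compared (adjusted p = 0.0688), and without dexamethasone replicate 1 (0.12) or 3 (0.0599) or dexamethasone + LiCl replicate 2 (0.0788) or 3 (0.124). The order of the conditions below control is not resolved: dexamethasone against LiCl had an adjusted p of 0.129 and LiCl against both drugs 0.581 in the edgeR test.

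Dkk2, which binds Lrp5 and Lrp6, rose by a modest amount. Control libraries held 51.3, 46.9 and 47.9 CPM, dexamethasone libraries 63.2, 60.4 and 61.0 CPM, LiCl libraries 58.1, 65.8 and 70.0 CPM, and libraries with both drugs 71.0, 67.9 and 62.8 CPM. All 9 treated libraries exceeded the 3 controls, and the 3 treated conditions overlapped one another. The log2 fold change was 0.33 with dexamethasone (SE 0.08, edgeR adjusted p = 0.0164), 0.41 with LiCl (SE 0.08, edgeR adjusted p = 0.0054) and 0.46 with both (SE 0.08, edgeR adjusted p = 0.000899). The dexamethasone call on Dkk2 was lost without control replicate 3 (adjusted p = 0.052) or dexamethasone replicate 1 (0.0648). Adding LiCl to dexamethasone left Dkk2 within an interval from -0.05 to 0.31 of its level with dexamethasone.

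Dkk1, the prototype of the family, had 0 counts in all 12 libraries. A count of 0 allows up to 3 counts, which is 0.137 CPM of the total in the deepest library and 0.331 CPM in the shallowest. The symbol is listed in the files, and whether reads of this gene could be counted there was not tested.

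Wif1, which binds Wnt proteins through a domain of its own, went the opposite way to Frzb, Sfrp2 and Sfrp5 under LiCl. Its level was 15.1, 19.9 and 14.8 CPM in control and 15.0, 13.6 and 14.1 CPM with dexamethasone. It was 28.1, 29.4 and 30.5 CPM with LiCl and 29.2, 21.7 and 26.9 CPM with both. All 6 libraries with LiCl were above all 6 without it, and within each set the conditions overlapped. Wif1 was 1.79-fold higher with LiCl than in control (log2 fold change 0.84, SE 0.12, edgeR adjusted p = 0.000537) and 1.82-fold higher with both drugs than with dexamethasone (log2 fold change 0.86, SE 0.13, edgeR adjusted p = 0.000885). Dexamethasone did not pass, alone (log2 fold change -0.21, interval -0.49 to 0.08) or on top of LiCl (log2 fold change -0.18, interval -0.44 to 0.08).

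Sost was detected in every library, at 1 to 23 counts, and was not part of the main test. Control libraries had 23, 13 and 19 counts, LiCl libraries 12, 19 and 10, dexamethasone libraries 2, 1 and 6, and libraries with both drugs 1, 7 and 2. On the CPM scale the means were 1.06 ± 0.13 in control, 0.776 ± 0.264 with LiCl, 0.320 ± 0.309 with dexamethasone and 0.287 ± 0.302 with both (mean ± SD, n = 3). Neither group with dexamethasone overlapped control, and both overlapped LiCl. Sost was below the count filter, so it enters the edgeR fit only under the looser filters. There both drugs against control gave a log2 fold change of -1.91 (adjusted p = 0.0326 with edgeR's own filter and 0.0166 with no filter), and dexamethasone against control -1.79 (adjusted p = 0.0818 and, with no filter, -1.80 and 0.0499). With edgeR's own filter Sost may have entered only through control and LiCl libraries, since no library with dexamethasone exceeded 0.669 CPM. A lower value with dexamethasone may therefore follow from that filter. Of 4 osteocyte markers, Fgf23 was at 0 in all 12 libraries and Mepe did not exceed 2.57 CPM. The 2 tested, Dmp1 and Phex, did not pass with dexamethasone against control (log2 fold changes 0.55 and -0.25). With LiCl Phex fell (-0.65, edgeR adjusted p = 0.0418), and Dmp1 did not pass. The summed level of the 4 was 17.4 to 40.9 CPM in control, 29.2 to 35.0 CPM with dexamethasone, 14.9 to 18.5 CPM with LiCl and 18.5 to 27.3 CPM with both. Their part in the values of Sost was not tested.

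The next question was whether the response to one drug depended on the other. LiCl against control and both drugs against dexamethasone use separate libraries, but they are not independent. They come from the same fit, and the study describes 3 rats for all pools. In both drugs against dexamethasone, 5 of the 7 genes passed, where 8.6% of all tested genes did (4.78% lower and 3.82% higher). Frzb, Sfrp2, Sfrp5 and Dkk3 were lower and Wif1 was higher. All 5 had passed in the same direction in LiCl against control, which held for 4.83% of all tested genes. The median change of the 7 genes was -0.43, against -0.0042 over all genes, and Frzb and Sfrp2 again exceeded 2-fold, as 1.36% of all tested genes did. Both drugs against LiCl likewise uses libraries separate from those of dexamethasone against control, with the same limit. There 2 of 7 passed, Sfrp1 and Sfrp2, both lower, where 6.87% of all tested genes passed (3.09% lower and 3.79% higher), and neither exceeded 2-fold, as 2.01% did. Both had been lower in dexamethasone against control, and 5.36% of all tested genes passed in the same direction in both comparisons. The median change was -0.16 over the 7 genes and -0.0021 over all genes.

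**Figure D2:**
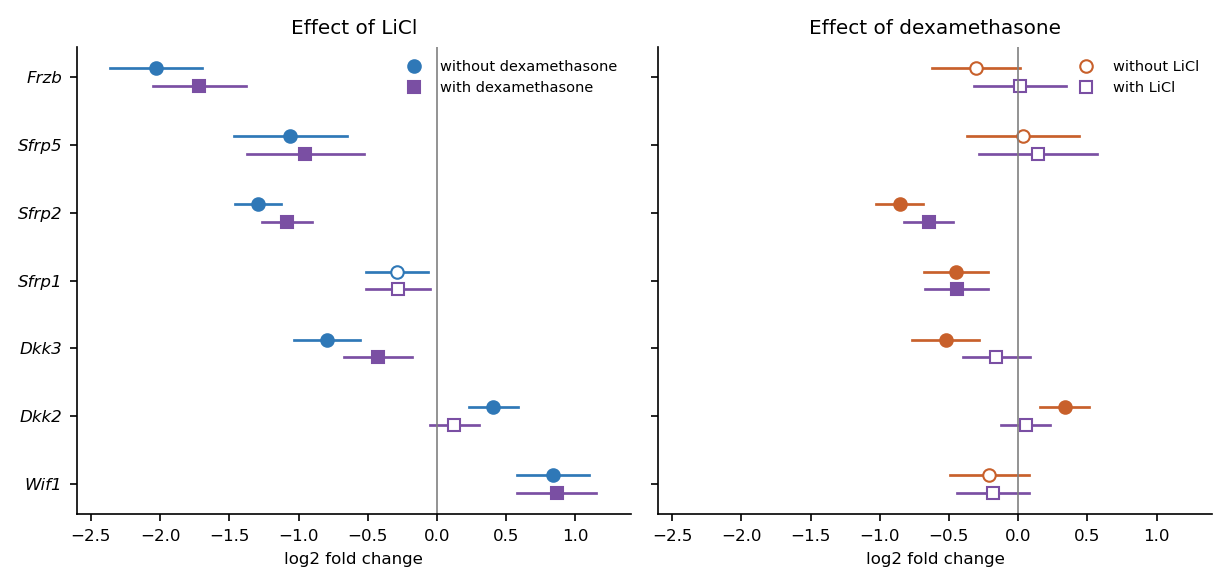
Log2 fold changes of the 7 tested genes with 95% intervals: LiCl without and with dexamethasone (left), dexamethasone without and with LiCl (right). Filled symbols passed at an edgeR adjusted p under 0.05; the LiCl values of Frzb are -2.03 and -1.72, and the dexamethasone values of Sfrp2 are -0.86 and -0.65.

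No interaction of the drugs passed for any of the 7 genes in edgeR or in DESeq2, and 0.00794% of all tested genes had one in edgeR. At an unadjusted p under 0.05 there were 2 of 7, Dkk2 (interaction -0.28 on the log2 scale, SE 0.12, unadjusted p = 0.0304) and Dkk3 (0.37, SE 0.16, unadjusted p = 0.0374), each with an edgeR adjusted p of 0.838. For these genes the change with both drugs was smaller than the sum of the single changes. Dkk2 had a sum of 0.74 and rose by 0.46 with both, and Dkk3 had a sum of -1.32 and a value of -0.95. Sfrp1 came to -0.73 with both and -0.74 as a sum, and Wif1 to 0.66 and 0.63. For Frzb the interaction was 0.32 with an interval from -0.14 to 0.77, and for Sfrp5 0.11 with an interval from -0.48 to 0.69, so departures of such size are not resolved with 3 libraries per condition.

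**Figure D3:**
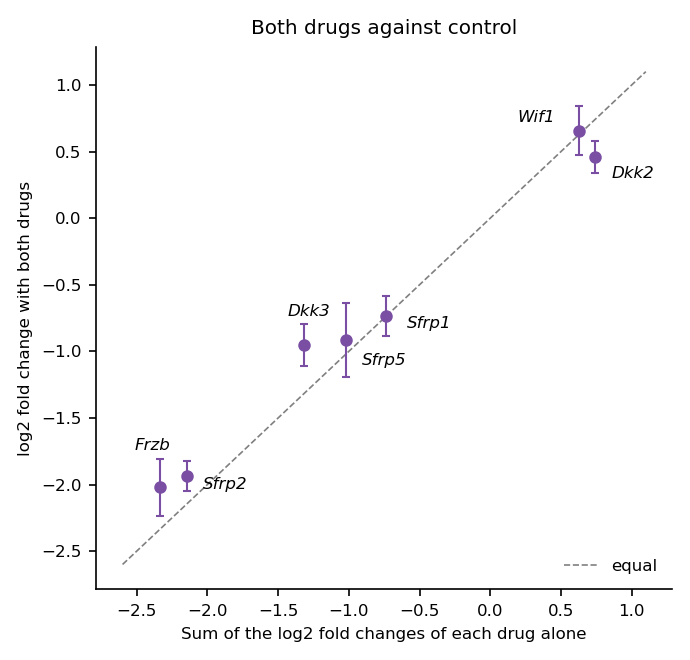
Log2 fold change with both drugs against control (vertical axis) plotted against the sum of the changes of each drug alone (horizontal axis) for the 7 tested genes; the dashed line marks equality and bars are the standard error of the difference between the axes. Dkk2 and Dkk3 lie farthest from the line in units of that error, and none of the 7 differences passed after adjustment.

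Against control, both drugs together changed all 7 tested genes, 5 lower and 2 higher, where 22.6% of all tested genes passed (11.8% lower and 10.8% higher). The median change of the 7 was -0.91, against 0.0085 over all genes. Frzb (log2 fold change -2.02) and Sfrp2 (-1.94) exceeded 2-fold, as 4.37% of all tested genes did. Between the single drugs 4 of 7 differed, where 16.2% of all tested genes did (8.95% higher and 7.22% lower with dexamethasone). Frzb, Sfrp2 and Sfrp5 were higher with dexamethasone than with LiCl and Wif1 was lower, 3 of these by over 2-fold (Frzb, Sfrp5 and Wif1, a size that 3.82% of all tested genes reached), and the median of the 7 was 0.27, against -0.0027 over all genes. The largest difference was that of Frzb, 3.31-fold.

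Other genes of the pathway were counted from fixed lists. Of 19 Wnt ligands 6 were tested. Wnt4 and Wnt5a were higher with dexamethasone than in control (log2 fold changes 1.02 and 0.26), and Wnt5a was higher with LiCl (0.32). When LiCl was added to dexamethasone 0 of the 6 ligands passed in edgeR, 2 had an unadjusted p under 0.05 and 1 passed in DESeq2. Of 19 receptor and co-receptor genes 16 were tested, and 2 rose and 5 fell with LiCl against control. Kremen1, a receptor for dickkopf proteins, rose (log2 fold change 0.60, SE 0.10, edgeR adjusted p = 0.00183), and Lrp4, which binds sclerostin, rose (0.42, SE 0.09, edgeR adjusted p = 0.01). Fzd4, a Frizzled receptor, fell with LiCl (-0.52) and rose with dexamethasone (0.52), and Ror1, a receptor for Wnt5a, fell with LiCl (-0.50). With dexamethasone 2 receptor genes passed, Fzd4 and Lrp4 (0.34), both higher.

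Secreted modulators outside the 10 genes went in both directions. Of 12 listed 7 were tested, and with LiCl 1 rose and 2 fell, with dexamethasone 3 passed, all lower. Notum, an extracellular enzyme that inactivates Wnt proteins by removing their lipid, had 14.2 ± 3.1 CPM in control, 8.79 ± 0.96 with dexamethasone, 47.3 ± 3.7 with LiCl and 27.2 ± 2.2 with both (mean ± SD, n = 3). The log2 fold change of Notum was 1.74 with LiCl (SE 0.14, edgeR adjusted p = 1.77e-06) and -0.69 with dexamethasone (SE 0.16, edgeR adjusted p = 0.00916). Rspo3, which amplifies Wnt signalling, fell with LiCl alone (-0.71) and on top of dexamethasone (-1.05). Igfbp4 fell with each drug (-0.57 with dexamethasone, -0.42 with LiCl), and Sostdc1, a relative of sclerostin, fell with dexamethasone (-0.91).

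Among 16 feedback and target genes of the pathway, 14 were tested. With LiCl 8 rose and 2 fell, with a median of 0.66, and on top of dexamethasone 7 passed, all higher, with a median of 0.60. Nkd2, an intracellular feedback inhibitor, went from 19.002 ± 1.02 CPM in control to 54.1 ± 2.1 with LiCl, from 11.7 ± 1.8 with dexamethasone to 41.4 ± 0.7 with both (mean ± SD, n = 3). With dexamethasone 2 of the 14 rose, Cd44 (0.70) and Lgr5 (1.98), and 5 fell, Nkd2 (-0.70) and Notum (-0.69) among them. Of the 11 measured genes of the intracellular pathway 0 passed in edgeR with either drug alone, and 2 with dexamethasone and 3 with LiCl had an unadjusted p under 0.05. In DESeq2 0 passed with dexamethasone and 1 with LiCl. Ctnnb1, which encodes β-catenin, was lower with both drugs than with dexamethasone (-0.28, SE 0.07, edgeR adjusted p = 0.0247).

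**Figure D4:**
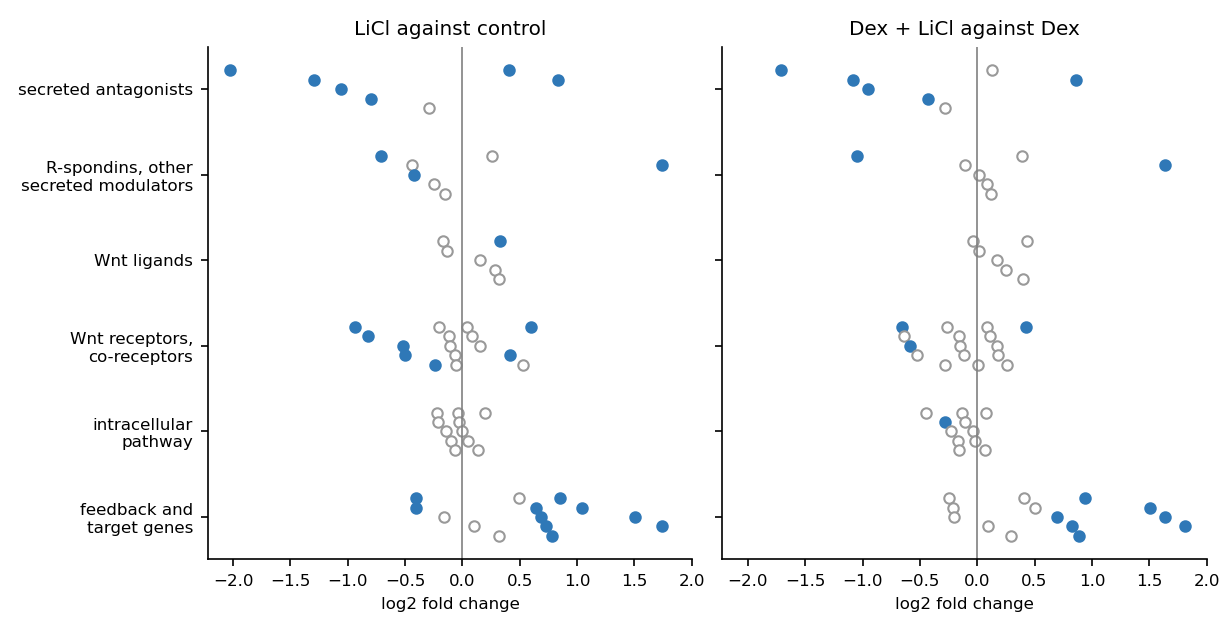
Log2 fold changes of each tested gene of 6 Wnt gene lists with LiCl against control (left) and with dexamethasone (Dex) + LiCl against Dex (right). Filled blue points passed at an edgeR adjusted p under 0.05; the antagonists spread from Frzb on the low side to Wif1 on the high side, while most feedback and target genes that passed were higher (8 of 10 on the left, 7 of 7 on the right), and Notum is drawn in 2 of the lists.

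The genes whose course over the 12 libraries was nearest to an antagonist differed from one antagonist to the next. Distance was the root mean square difference of log2 CPM after centring each gene, and all values share the same libraries. For Frzb these were Lrrn1, Smoc1 and Gas2, at 0.27, 0.31 and 0.40, against a spread of Frzb itself of 0.96. Smoc1, a secreted calcium-binding protein, changed by -1.47 with LiCl on the log2 scale. For Sfrp5 they were Matn1, a cartilage matrix protein, Slc16a14 and Cmtm5, at 0.20 to 0.21 against 0.56, and for Sfrp2 Hs6st2, Mmp11 and Emid1, at 0.15 to 0.18 against 0.71. Those of Dkk3 were Ptn, Lrrn3 and Pde7b (0.12 to 0.14, against 0.39). Wif1 lay nearest to Apcdd1, a membrane-bound Wnt inhibitor, Pdgfa and Ier5 (0.14 to 0.15, against 0.45). Sfrp1 lay nearest to Zfp608, Snn and Fam212b and Dkk2 to Serac1, Hps4 and Smug1 (0.10 to 0.11 against 0.29, and 0.08 to 0.09 against 0.19).

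Markers of cell types moved with the drugs beside these genes. The summed level of 8 chondrocyte markers was 69143 to 82115 CPM in control, 51661 to 80647 with dexamethasone, 65918 to 78391 with LiCl and 58433 to 83531 with both, and Col2a1 made up the largest share of it. Of these 8, 2 were lower with LiCl than in control, and Matn1 (-0.76) was one of them. Of 5 hypertrophic chondrocyte markers 2 fell with LiCl, Col10a1 and Mmp13. The sum of the 5 was 3187 to 3603 CPM in control, 1777 to 1992 CPM with LiCl and 2762 to 3352 CPM with both drugs. Col10a1 made up the largest share of this sum. With both drugs against control Col10a1 did not pass (log2 fold change -0.04), while Mmp13 (-1.09) and Panx3 (-1.38) were lower. Panx3 also fell with dexamethasone (-1.15). Of 4 markers of the joint surface 1 fell with LiCl and 2 with dexamethasone, and the sum was 128.4 to 134.4 CPM in control and 92.2 to 111.8 CPM in the treated libraries. Of 6 perichondrial and fibroblast markers 1 rose with LiCl in edgeR, Dpt, and 3 passed in DESeq2. The sum of the 6 was 19938 to 25583 CPM in control and 17323 to 18831 CPM with LiCl. Col1a1 made up the largest share of this sum and did not pass with LiCl (log2 fold change -0.53, edgeR adjusted p = 0.0505). With dexamethasone 2 of the 6 rose and 1 fell in edgeR. Of 4 tendon markers 3 fell with dexamethasone and 1, Scx, with LiCl. The sum of the 4 was 1576 to 1753 CPM in control, 955.4 to 1277 CPM with dexamethasone and 1290 to 1346 CPM with LiCl. Fmod made up the largest share of this sum and did not pass with LiCl (log2 fold change -0.32, edgeR adjusted p = 0.0714).

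Of 5 endothelial markers 4 fell with dexamethasone and 0 passed with LiCl in edgeR (1 at an unadjusted p under 0.05, 0 in DESeq2), with sums of 134.5 to 153.0 CPM in control, 59.7 to 65.0 with dexamethasone and 122.5 to 129.8 with LiCl. Of 5 skeletal muscle markers 2 were tested, Myh3 and Acta1, and both were higher with LiCl. The sum of the 5 was 1.504 to 4.93 CPM in control, 18.01 to 28.2 CPM with LiCl and 46.7 to 63.8 CPM with both drugs. With lowest levels of 0.903 and 0.351 CPM, these 2 may have met the count filter only through libraries with LiCl. The direction among the markers tested may therefore follow from the filter. Osteoclast markers fell with each drug in edgeR, 3 of 3 tested, while 2 passed with LiCl in DESeq2. Adipocyte markers fell with LiCl, 3 of 3 tested. With dexamethasone 2 of these fell, and Fabp4 went the other way without passing in edgeR (log2 fold change 0.76, adjusted p = 0.0598). All 3 passed there in DESeq2. Adipoq, at 0 in 4 libraries and at most at 6.84 CPM, may have met the count filter only through control libraries. The fall of Adipoq with each drug may therefore follow from the filter. Of 3 smooth muscle and pericyte markers tested 2 rose and 1 fell with LiCl, and 0 passed with dexamethasone in edgeR (1 at an unadjusted p under 0.05, 0 in DESeq2). Of 4 macrophage markers 2 fell with LiCl, and with dexamethasone 1 rose and 2 fell. Of 4 osteoblast markers tested 1 fell with dexamethasone and 0 passed with LiCl in edgeR (1 at an unadjusted p under 0.05, 0 in DESeq2). The keratins Krt5 and Krt14 of epidermis were at 0 in 11 and 10 of the 12 libraries. The part of these markers in the antagonists' changes was not tested.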

How the data were processed

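Bones of 12 pools (3 per condition) were crushed and strand-specific poly(A) libraries sequenced. The authors aligned reads with Subread, removed duplicates with Picard, counted reads per gene with HTSeq and then merged technical replicates, and they deposited raw counts per gene symbol. The submitters' processing notes name the human builds hg19 and GRCh37 for these rat libraries, and the build used is not settled here, so no coordinates come from the files. The deposited cross-tabulation holds the same counts and was not used.

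Members and gene lists were chosen with earlier results of these data known. All 10 members are named, then for each tested member the 3 genes with the nearest course over the libraries, and of each pathway list up to 4 genes with the smallest adjusted p in the comparisons of each drug alone and of each drug added to the other. The filter asked for 60 or more counts in 2 or more libraries, and the 12602 genes left of 23569 with a count were fitted with edgeR 4.0.16 in R 4.3.3, by condition, on trimmed-mean scaling. Replicate pairs of a condition differed beyond sampling noise (chi-square per gene 4.07 to 21.1 over 12 pairs), so each library counted once. Nothing ties replicates to separate cultures beyond the study's own description, and intervals cover the spread between these libraries.

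Deviations from condition means of libraries with the same number correlated at over 0.1 in every pair for 5 of the 6 pairs of conditions, and at 0.047 to 0.205 between control and dexamethasone. The pairing of numbers comes from this check and from the study's consecutive experiments, not from the labels. The method was tested on simulated counts: for LiCl against control, 88% of 2-fold changes and 74% of 1.5-fold changes were recovered. Changes were planted in the LiCl libraries alone, so recovery in the shallower dexamethasone libraries was not tested. Alternatives were RLE scaling, DESeq2 1.42.0, other count filters, a replicate block, fits of the compared groups alone, a 2-fold minimum and each library left out. At totals of 9055581 to 21953446 counts, precision is lowest for Sfrp4 and Sost.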

Additional observations from a re-analysis of the deposited data

How the results depend on the processing

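Of 287 values of the 7 tested genes under settings other than leaving out a library, 282 kept their direction and their side of the threshold, 1 was lost, 2 were gained and 2 changed sign. With the replicate block Sfrp1 passed in LiCl against control (-0.28, adjusted p = 0.0467), which brought that count to 7, and 2 values near 0 changed sign, Frzb in both drugs against LiCl (-0.0014) and the Sfrp1 interaction (-0.0073). The block changed no other call. With the compared groups alone the Dkk3 call in both drugs against dexamethasone was lost (adjusted p = 0.0688) and Dkk3 in dexamethasone against LiCl was gained (0.0306). The cause was not tested. RLE scaling and DESeq2 changed no call.

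A 2-fold minimum left 0 genes in dexamethasone against control, 3 in LiCl against control, 2 in both drugs against dexamethasone, 0 in both against LiCl and 2 in both against control.

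With a library left out, counts ranged from 2 to 4 in dexamethasone against control (2 without control replicate 3), from 1 to 2 in both against LiCl, and from 4 to 5 in both against dexamethasone, and stayed at 6, 7, 4 and 0 in LiCl against control, both against control, dexamethasone against LiCl and the interaction. Of 588 values 558 kept direction and side, 12 were lost, 1 was gained and 17 changed sign, all of the last near 0: Frzb in both against LiCl (-0.142 to 0.1142), Sfrp5 in dexamethasone against control (-0.1279 to 0.2266) and in both against LiCl (-0.0783 to 0.2521), Dkk2 in both against LiCl (-0.0133 to 0.1152), and the interactions of Sfrp1 (-0.1272 to 0.0819), Sfrp5 (-0.1147 to 0.2723) and Wif1 (-0.1043 to 0.1366). Depth limits Sfrp4 and Sost. For Dkk1, at 0 in every library, whether its reads could be counted was not tested.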
